A study of Mus musculus with 8 samples.

Results

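The PYHIN genes of the Ifi200 cluster on mouse chromosome 1 were examined in primary embryonic fibroblasts with and without Tfam haploinsufficiency and Zbp1. A list of 7 names chose them: Ifi202b, Ifi203, Ifi204, Ifi205, Mndal, Aim2 and Pyhin1. All 7 were found among the 24972 genes of the table, 6 of them by symbol and Pyhin1 as Ifi209, its symbol in the RefSeq annotation. The list was drawn up with the values of these libraries known, and it states that Ifi202b was present in Zbp1-/- cells only. That pattern is therefore given as a description, without a test.

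PYHIN proteins, also called HIN-200 proteins, join a pyrin domain, through which proteins of the same fold bind each other, to a HIN domain that binds DNA. Many of the genes are induced by interferon. Some of the proteins serve as sensors of DNA in the cytosol or the nucleus: AIM2 nucleates an inflammasome through the adaptor ASC, and p204, the product of Ifi204, feeds the STING pathway that induces type I interferon. The product of Ifi202b, p202, lacks the pyrin domain and is known to restrain AIM2.

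The libraries were made from total RNA of fibroblasts grown from embryos at embryonic day 14, cultured for 2 passages and left untreated. There were 4 genotypes with 2 libraries each: wild type (WT), heterozygous for Tfam (Tfam+/-), homozygous for the loss of Zbp1 (Zbp1-/-), and both together (Tfam+/-Zbp1-/-). The Tfam protein packages mitochondrial DNA. ZBP1 is a cytosolic protein that senses nucleic acids in the Z form. The sources used here do not give the way the alleles were made, the strain of the mice, or whether both libraries of 1 genotype stem from different embryos. The p-values therefore measure only the spread between these libraries, which may be technical.

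Library totals ran from 16752835 to 18303036 normalized counts, and 16051 to 16261 genes were above 0. Tfam measured 629 and 610 normalized counts in WT, against 278 and 365 for Tfam+/-, 675 and 471 for Zbp1-/- and 424 and 375 for Tfam+/-Zbp1-/-. Zbp1 was at 64.6 and 69.8 in Tfam+/- and at 0.86 to 7.34 in the other 6 libraries, so it separated Tfam+/- from Tfam+/-Zbp1-/- but not WT from Zbp1-/-. All 12 fibroblast markers were above 0 in every library, and their sum was 551296 to 789851. Of 18 leukocyte markers, 14 or 15 were above 0 in each library, and the T cell gene Cd3e and the natural killer cell gene Ncr1 were at 0 in all 8. The leukocyte sum stood at 5862 and 5783 in WT, against 8168 and 6818 for Tfam+/-, 3666 and 3605 for Zbp1-/- and 2946 and 2959 for Tfam+/-Zbp1-/-. Endothelial markers summed to 233 to 386 and epithelial markers to 119 to 400.

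The 7 genes lie within 682.2 kb of chromosome 1 (GRCm38.p6, the mm10 assembly), from Aim2 (plus strand, 173349547 to 173466040) to Ifi205 (minus strand, 174011998 to 174031755). Ifi209 (173630859 to 173647928) is on the plus strand. On the minus strand follow Ifi204 (173747293 to 173767069), Mndal (173857215 to 173880382), Ifi203 (173920400 to 173942866) and Ifi202b (173962569 to 173982844). Between them the table held 5 other PYHIN genes: Ifi214, Ifi213, Ifi208, Ifi207 and Ifi211. The annotated span of Aim2 overlaps Cadm3 on the opposite strand, and the sources used here do not say whether counts used strand.

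Promoter sequence is shown because most of these genes were highest in the same libraries and Ifi202b was not. RefSeq promoter windows of 250 bases before and 50 after the start site were found for 6 of the 7 members, all but Ifi204, and for the 5 other PYHIN genes. They were searched on both strands for GAAANNGAAA, the core of the interferon-stimulated response element (ISRE), and for TTCNNNGAA, the interferon-gamma activated site (GAS). The letters of the ISRE-like motif stand in 3.99% of the 27025 genes with windows. They were found in 3 of 6 members (Ifi203, Mndal and Ifi205) and in 5 of 5 other PYHIN genes. In the stretches below, each of 60 bases and read 5′ to 3′ on the gene's strand, capitals mark the 10 letters of the motif or, for Ifi209, the letters at the same place.
Ifi203, chr1:173942493-173942552, minus strand: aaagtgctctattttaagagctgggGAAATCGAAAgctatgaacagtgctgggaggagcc
Mndal, chr1:173880189-173880248, minus strand: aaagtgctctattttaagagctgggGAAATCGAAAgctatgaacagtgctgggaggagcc
Ifi205, chr1:174031855-174031914, minus strand: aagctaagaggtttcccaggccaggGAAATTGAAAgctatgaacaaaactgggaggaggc
Ifi211, chr1:173913049-173913108, minus strand: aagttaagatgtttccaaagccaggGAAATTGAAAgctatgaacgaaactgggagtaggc
Ifi214, chr1:173536002-173536061, minus strand: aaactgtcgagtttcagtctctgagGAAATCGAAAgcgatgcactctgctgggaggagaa
Ifi209, chr1:173630755-173630814, plus strand: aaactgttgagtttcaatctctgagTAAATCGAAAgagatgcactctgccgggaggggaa

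The stretches of Ifi203 and Mndal carried the same letters, and the full windows of this pair were 94.3% identical. The windows of Ifi211 and Ifi205 were 93.5% identical over the 201 columns that aligned, and those of Ifi214 and Ifi209 95.7%. The motif of Ifi203 began 35 bases before the start site, that of Mndal 36 and that of Ifi205 134. A further window of Mndal, at another annotated start, held a match on the opposite strand, and Ifi205 held another on the opposite strand after its start site. Ifi209 differed from Ifi214 within the motif by G1T, counted from 1 at the motif's 5′ end with Ifi214 as the reference, and had no match elsewhere in its window. Aim2 had no match to either motif. A match is a description of letters, and no match says only that these letters are not in this window. In Tfam+/- against WT, Aim2 and Ifi209, without an ISRE-like match, were 1.04 and 1.26 higher on a log2 scale. Ifi203, Mndal, Ifi205, Ifi207 and Ifi211, with a match, were 1.01 (Ifi207) to 2.26 (Ifi205) higher. A link between these letters and the levels was not tested.

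The window of Ifi202b is shown because it was the only PYHIN window with the GAS letters, which stand in 9.55% of genes with windows, and because it held no ISRE-like match. The letters are those of the reference assembly. The strain of the mice is not given, so the promoter in the cells that expressed Ifi202b may read differently. The 250 bases of the window before the start site follow, with the GAS letters in capitals, 148 to 140 bases before the start.
Ifi202b, chr1:173982845-173983094, minus strand: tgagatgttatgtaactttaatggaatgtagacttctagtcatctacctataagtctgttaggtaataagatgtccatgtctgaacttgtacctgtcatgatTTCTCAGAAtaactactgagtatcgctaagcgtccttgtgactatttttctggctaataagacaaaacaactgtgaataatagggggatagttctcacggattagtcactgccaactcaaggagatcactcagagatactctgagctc

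**Figure D1:**
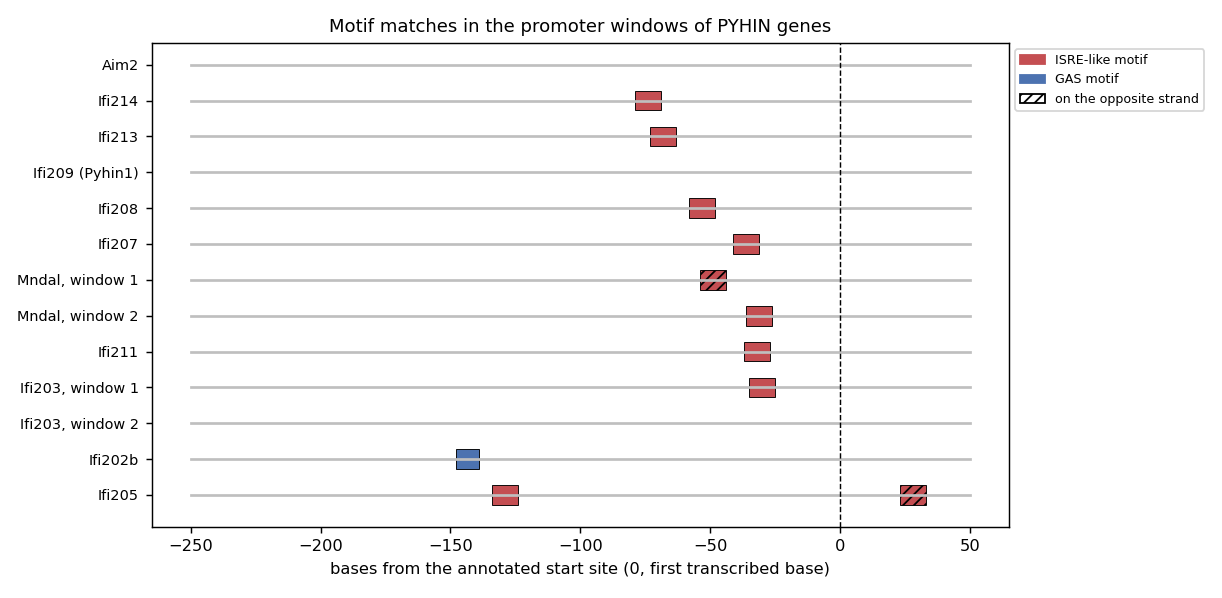
Matches to the ISRE-like motif (red) and the GAS motif (blue) in the RefSeq promoter windows of the PYHIN genes, listed in their order on chromosome 1. The x axis gives bases from the start site. Ifi207, Ifi211, Ifi203 and 1 window of Mndal carry the ISRE-like letters within 41 bases before the start, Ifi202b carries only the GAS letters, and Aim2, Ifi209 and the second window of Ifi203 carry neither.

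Ifi202b was at 380 and 238 normalized counts in the Zbp1-/- libraries and was listed at 0 in all other 6 libraries, Tfam+/-Zbp1-/- included. The gene passed the filter on low values through Zbp1-/- alone, and no fold is given against libraries listed at 0. In the Zbp1-/- libraries it made up 37.2% and 33.5% of the summed counts of all 12 PYHIN genes. Its transcript is also the most distinct of the cluster: 98.8% of the 31-base words of its GENCODE coding transcripts occurred in no other gene. Aim2 was next at 94.0%, followed by Ifi207 at 85.2%, while Ifi205 was at 43.5% and Ifi211 was lowest at 21.1%. Counts of genes with near-copies are uncertain, because the counting method is not given: Ifi205 shared 54.1% of its words with Ifi211, Ifi209 shared 48.2% with Ifi214, and Ifi204 shared 29.5% with Ifi211. In all, 46.0% of the words of Ifi204 and 42.8% of those of Mndal occurred in another gene.

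Evi2 was the only other gene of the table that was listed at 0 in the same 6 libraries and at 10 or more in both Zbp1-/- libraries, where it was at 37.7 and 29.2. Evi2b showed the reverse, at 0 in both Zbp1-/- libraries and at 27.1 or more in the others. The annotated span of Evi2 holds that of Evi2b, so reads of the pair could have been counted for either. Ifi202b is known to be expressed in some inbred mouse strains and nearly silent in others. Nnt, another gene that is known to differ between strains, measured 947 and 928 in WT, against 808 and 971 for Tfam+/-, 2070 and 1961 for Zbp1-/- and 1396 and 1472 for Tfam+/-Zbp1-/-. The Zbp1-/- libraries were thus highest for both genes, and Nnt was intermediate in Tfam+/-Zbp1-/-, where Ifi202b was listed at 0. Genotype and strain background cannot be told apart here.

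Aim2, the inflammasome sensor of double-stranded DNA, measured 8.17 and 14.6 normalized counts in WT, against 23.4 and 23.7 for Tfam+/-, 15.7 and 15.2 for Zbp1-/- and 13.8 and 16.4 for Tfam+/-Zbp1-/-. Tfam+/- was highest without overlap, and the other 3 genotypes lay within 8.17 to 16.4. Zbp1-/- lay just above WT without overlap, while its values fell inside the range of Tfam+/-Zbp1-/-, which overlapped WT.

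Ifi204, which encodes the DNA sensor p204, measured 203 and 176 in WT, against 398 and 631 for Tfam+/-, 264 and 207 for Zbp1-/- and 210.1 and 184 for Tfam+/-Zbp1-/-. Again Tfam+/- stood above the rest. Zbp1-/- lay just above WT without overlap, while Tfam+/-Zbp1-/- overlapped both.

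Ifi203, which encodes an interferon-inducible nuclear protein, measured 24.6 and 36.3 in WT, against 100.4 and 196 for Tfam+/-, 67.5 and 56.3 for Zbp1-/- and 42.1 and 42.7 for Tfam+/-Zbp1-/-. It was the member whose 4 genotypes did not overlap, in the order Tfam+/-, Zbp1-/-, Tfam+/-Zbp1-/- and WT.

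Ifi205, first described as an interferon-induced gene of macrophages, measured 9.33 and 17.8 in WT, against 45.2 and 95.3 for Tfam+/-, 11.7 and 6.43 for Zbp1-/- and 10.9 and 17.6 for Tfam+/-Zbp1-/-. Mndal, named for its likeness to the human myeloid nuclear differentiation antigen, measured 16.5 and 16.8 in WT, against 49.2 and 77.7 for Tfam+/-, 29.6 and 12.0 for Zbp1-/- and 25.8 and 12.4 for Tfam+/-Zbp1-/-. In both genes Tfam+/- was above the other 6 libraries, which overlapped one another. For Mndal replicate 1 was the higher in both Zbp1-/- and Tfam+/-Zbp1-/-.

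Ifi209 (Pyhin1) measured 11.4 and 19.8 in WT, against 26.4 and 52.9 for Tfam+/-, 6.35 and 1.83 for Zbp1-/- and 13.0 and 18.6 for Tfam+/-Zbp1-/-. It was the member with Zbp1-/- below all other 6 libraries, so that it was lowest where Ifi202b was present. WT and Tfam+/-Zbp1-/- overlapped.

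Of the other PYHIN genes, Ifi211 measured 327 and 366 in WT, against 603 and 1011 for Tfam+/-, 195 and 139 for Zbp1-/- and 238 and 260.3 for Tfam+/-Zbp1-/-. Its 4 genotypes did not overlap, and it shared with Ifi209 the lowest level in Zbp1-/-. Ifi207 measured 46.6 and 50.1 in WT, against 74.9 and 129 for Tfam+/-, 51.9 and 34.9 for Zbp1-/- and 41.1 and 34.5 for Tfam+/-Zbp1-/-. Ifi208 did not exceed 5.16 and Ifi213 did not exceed 3.36, both with their highest value in Tfam+/- replicate 2, and Ifi214 was at 0 throughout. These 3 fell below the filter on low values, which required an average of 10 or more in these 8 libraries. All 7 members passed it.

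**Figure D2:**
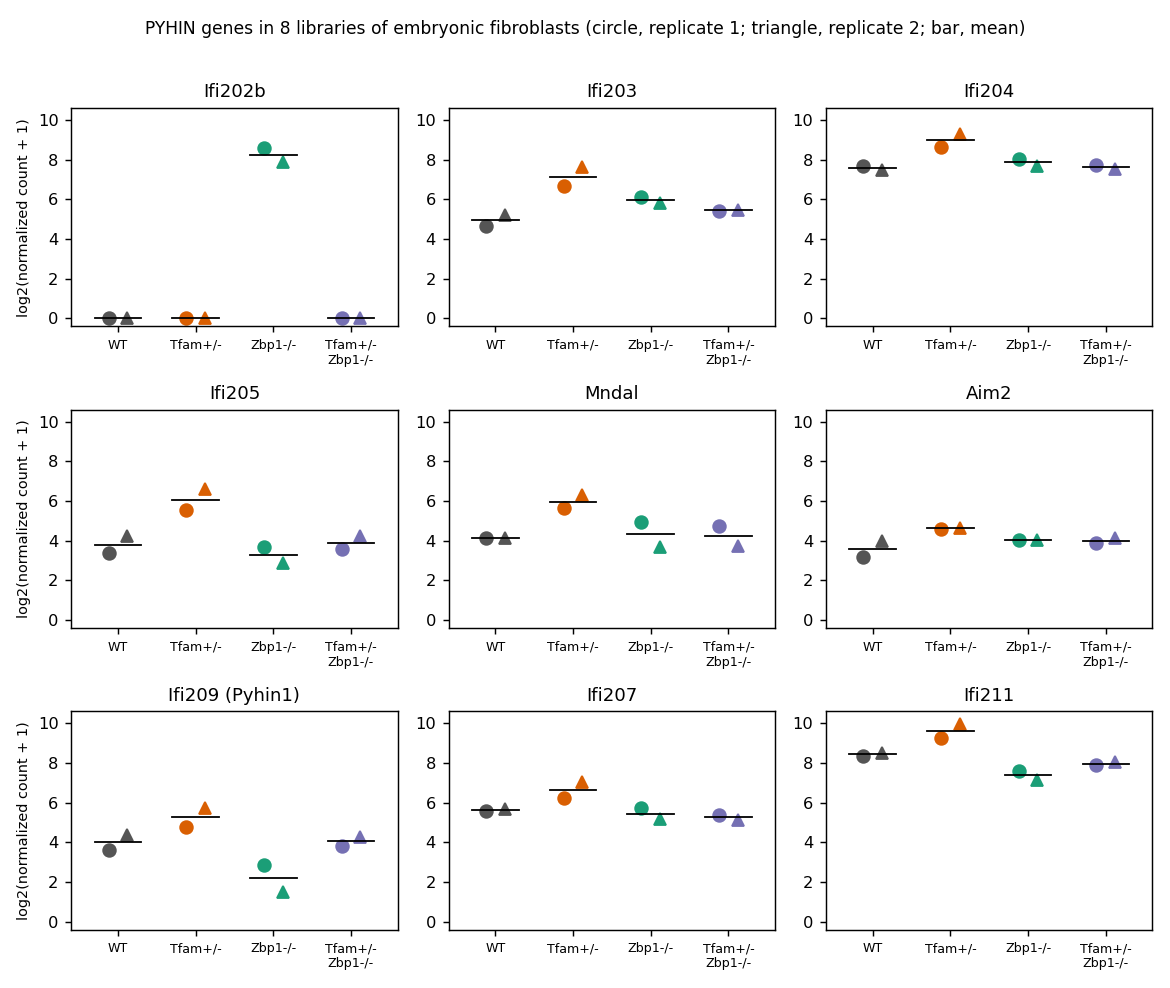
Level of the 7 members, Ifi207 and Ifi211 in the 8 libraries, as log2(normalized count + 1) on the y axis, by genotype on the x axis; circles are replicate 1, triangles replicate 2 and bars the mean of both. The Tfam+/- points are highest in every panel except Ifi202b, which is above 0 in Zbp1-/- alone, and Ifi209 and Ifi211 are lowest in Zbp1-/-.

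The first tested question was how loss of 1 Tfam allele bore on the cluster. On the log2(normalized count + 1) scale, the 6 members other than Ifi202b lay 1.04 to 2.26 above WT in Tfam+/-, and their median was 1.62 against -0.01 over the 13267 genes tested. With limma across all genes and Benjamini-Hochberg adjustment, 0 of the 6 passed an adjusted p of 0.05, where 0.731% of all genes passed, 0.565% as higher and 0.166% as lower. At an unadjusted p under 0.05, 5 of the 6 passed, as did 1159 of the 13267 genes tested. The libraries of all 6 members did not overlap between the genotypes, as was so for 23.3% of all genes as higher and 25.5% as lower.

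Ifi203 came nearest to the threshold, with a difference of 2.19 ± 0.34 (SE) and an adjusted p of 0.053 from limma, a fold of 4.57 on that scale. Ifi204 followed at 1.40 ± 0.24 (adjusted p = 0.078). Ifi205 showed the largest difference of the members, 2.26 ± 0.51, with an adjusted p of 0.18. Mndal was at 1.83 ± 0.51 and Ifi209 at 1.26 ± 0.57, with adjusted p-values of 0.31 and 0.56. Aim2 was at 1.04 ± 0.32 (adjusted p = 0.40), the smallest difference among the members. Outside the list, Ifi211 was at 1.17 ± 0.27 and Ifi207 at 1.01 ± 0.31, with adjusted p-values of 0.19 and 0.40.

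Replicate 2 of Tfam+/- held the higher value of each of these 8 genes, nearly level for Aim2 and 1.58 (Mndal) to 2.11 (Ifi205) times replicate 1 for the other 5 members. Without Tfam+/- replicate 1, Ifi203 (2.67, adjusted p = 0.027) and Ifi204 (1.73, adjusted p = 0.039) passed the test. Without Tfam+/- replicate 2, Ifi209 was at 0.77, Ifi207 at 0.62, Ifi205 at 1.73 and Ifi203 at 1.71, and Aim2 was at 0.65 without WT replicate 1 and at 1.42 without WT replicate 2; none of these passed. Tfam+/- replicate 1 and Zbp1-/- replicate 2 deviated from their partners together across all genes. With a term shared by them, 5 of the 6 members passed and Aim2 did not. With this term 2069 of the 13267 genes passed, against 97 in the main fit. Without both libraries Ifi203 was at 2.67, but that fit left 1 library each of Tfam+/- and Zbp1-/-.

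The second question was what loss of Zbp1 did where 1 Tfam allele was also lost. Ifi203 fell by 1.70 ± 0.34 on the log2 scale from Tfam+/- to Tfam+/-Zbp1-/- (adjusted p = 0.037, limma), and Ifi204 fell by 1.34 ± 0.24 (adjusted p = 0.026). These 2 of 6 members were called, against 5.64% of all genes, 3.32% called as higher and 2.32% as lower. All 6 were lower without overlap, as were 13.5% of all genes (42.4% were higher), and their median difference was -1.52 against 0.14 over all genes. At an unadjusted p under 0.05, 4 of the 6 passed, as did 2756 of the 13267 genes tested.

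Ifi205 had the largest difference, -2.16 ± 0.51, and missed the threshold (adjusted p = 0.062). Mndal was at -1.73 ± 0.51, Ifi209 at -1.22 ± 0.57 and Aim2 at -0.61 ± 0.32, with adjusted p-values of 0.11, 0.29 and 0.32. Of the other PYHIN genes, Ifi211 fell by 1.65 ± 0.27 (adjusted p = 0.018), and Ifi207 was at -1.36 ± 0.31 (adjusted p = 0.057). The calls of Ifi203, Ifi204 and Ifi211 were lost when either WT library or either Tfam+/-Zbp1-/- library was left out (limma's adjusted p from 0.071 to 0.23, 0.069 to 0.20 and 0.054 to 0.15), and that of Ifi203 also without Tfam+/- replicate 2 (adjusted p = 0.063). With the replicate number as a block all 3 were lost too (adjusted p = 0.068, 0.074 and 0.052), and Ifi203 also without the filter on low values (adjusted p = 0.053). The comparison shares the Tfam+/- libraries with the one against WT, so the opposite signs of the differences are not independent.

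The third question was whether the double mutant differed from WT. The 6 members were 0.04 to 0.49 higher in Tfam+/-Zbp1-/-, with a median of 0.10 against 0.12 over all genes. None of the 6 was called by limma, and none had an unadjusted p under 0.05, where 1674 of the 13267 genes did. Over all genes 1.38% were called, 0.897% as higher and 0.482% as lower. Only Ifi203, at 0.49 ± 0.34 (adjusted p = 0.63), was higher without overlap, as were 58.8% of all genes (14.1% were lower). The 95% interval of the difference ran from -0.33 to 1.30 for Ifi203, from -0.52 to 0.63 for Ifi204, from -0.34 to 1.19 for Aim2, from -1.12 to 1.31 for Ifi205, from -1.11 to 1.31 for Mndal and from -1.32 to 1.41 for Ifi209. Differences of more than 1 log2 unit therefore lay inside the interval for 5 of them, all but Ifi204. Ifi204, Ifi205, Mndal and Ifi209 turned slightly below 0 under TMM scaling (trimmed mean of M-values).

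**Figure D3:**
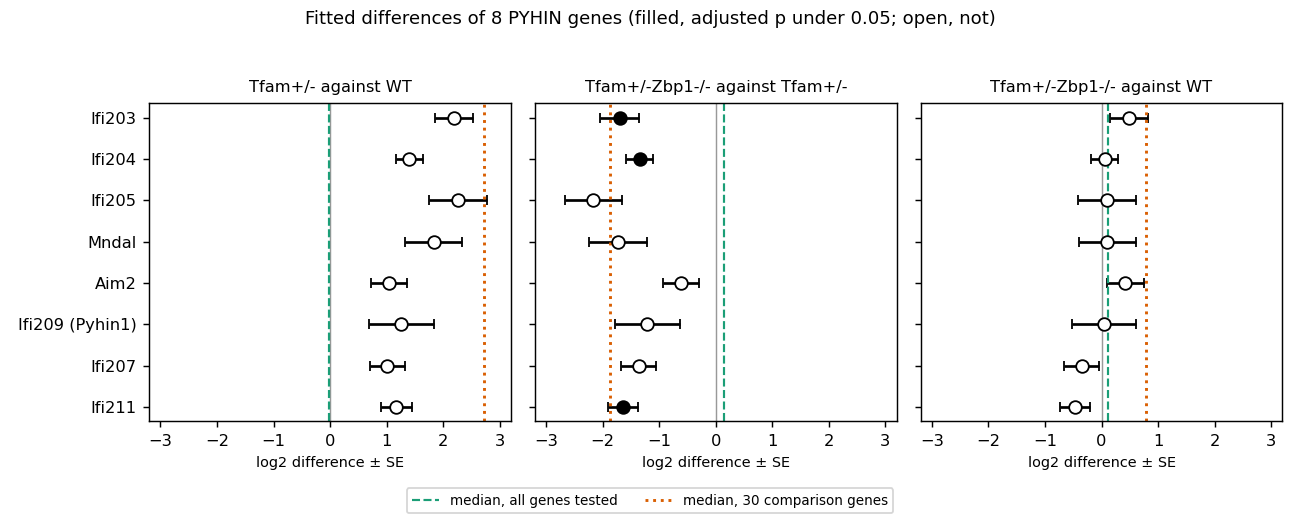
Fitted log2 difference ± SE (x axis) of 8 PYHIN genes (y axis) in the 3 tested comparisons; filled points had an adjusted p under 0.05, and lines mark the median of all genes tested (dashed) and of 30 interferon-stimulated comparison genes (dotted). All 8 lie above 0 in Tfam+/- against WT and below 0 in Tfam+/-Zbp1-/- against Tfam+/-, where Ifi203, Ifi204 and Ifi211 are filled, and they lie around 0 in Tfam+/-Zbp1-/- against WT.

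Leukocyte markers and 2 keratins moved with these comparisons. For leukocyte markers in Tfam+/- against WT, 13 of the 14 tested were above 0, with a median of 0.46 and none called by limma (8 at an unadjusted p under 0.05). In Tfam+/-Zbp1-/- against Tfam+/-, all 14 were lower, 11 of them called, with a median of -1.39. In Tfam+/-Zbp1-/- against WT, 4 were called lower and the median was -0.96, where the median of the PYHIN members was 0.10. Of the 4 epithelial markers 2 were tested, the keratins Krt8 and Krt18: both were above 0 in Tfam+/- against WT (median 0.64, 0 called, 1 at an unadjusted p under 0.05), both were called lower in Tfam+/-Zbp1-/- against Tfam+/- (median -1.41), and 1 was called lower in Tfam+/-Zbp1-/- against WT. Of the 12 fibroblast markers, 2 (Col3a1 and Lum) were called higher in Tfam+/-Zbp1-/- against Tfam+/- (median 0.16) and none in the other 2 comparisons (1 and 4 at an unadjusted p under 0.05). The epithelial markers Epcam and Cdh1 were below the filter. Their means were lower in Tfam+/- (0.54 and 0.99) than in WT (0.97 and 2.85). The tested endothelial markers, Kdr and Tek, went opposite ways. Kdr was at 0.50 in Tfam+/- against WT and at -0.54 in Tfam+/-Zbp1-/- against Tfam+/-, and Tek at -0.75 and 1.31. Neither was called by limma in the 3 comparisons, though both had an unadjusted p under 0.05 in these 2. In bulk cultures fewer cells of a type and less RNA per cell cannot be told apart, and the part of these markers in the PYHIN values was not tested.

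The comparisons with Zbp1-/- are described without a test, since the choice of genes used them. Against WT, Ifi203 was 1.02 higher in Zbp1-/- on the log2 scale, Aim2 0.46 and Ifi204 0.31, each without overlap. Mndal (0.17) and Ifi205 (-0.52) overlapped WT. Ifi209, at -1.81, and Ifi211, at -1.06, were lower without overlap. Over all genes, 42.1% were higher and 16.8% lower without overlap in this comparison. Set against all other 6 libraries, Zbp1-/- was higher for Ifi202b and lower for Ifi209 and Ifi211, and it overlapped for the other 5 members and Ifi207. The same holds for 10.9% of all genes as higher and 2.98% as lower.

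From Zbp1-/- to Tfam+/-Zbp1-/-, Ifi209 was 1.86 higher and Ifi211 0.59 higher without overlap, and Ifi203 was 0.53 lower without overlap (26.2% and 23.3% of all genes were higher and lower without overlap). Ifi202b went from 380 and 238 to values listed at 0. Of the 6 members other than Ifi202b, 1 was thus higher and 1 lower without overlap, not beyond the shares over all genes. Between WT and Tfam+/- all 6 were higher in Tfam+/- without overlap, as were 23.3% of all genes.

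**Figure D4:**
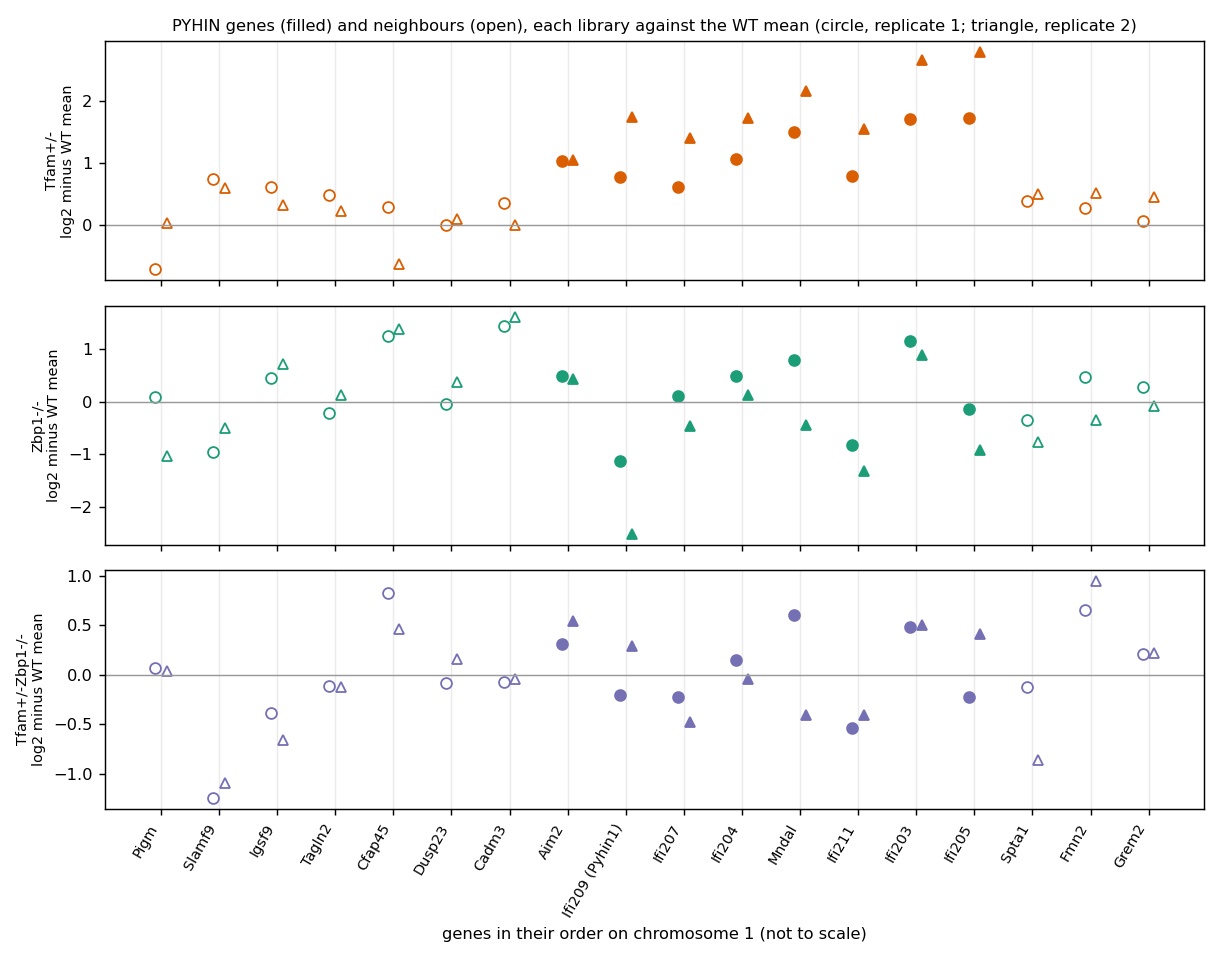
Each library of the 3 mutant genotypes against the WT mean, as a log2 difference of normalized count + 1 on the y axis, for PYHIN genes (filled) and neighbours within 1000000 bases (open), in their order along chromosome 1; y axes differ between panels, and Ifi202b is left out because WT was listed at 0. In Tfam+/- every PYHIN point lies above 0 while neighbours lie on both sides of it, and in Zbp1-/- Ifi209 and Ifi211 are the PYHIN genes that lie lowest.

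Neighbouring genes set the frame for these values. The table held 41 other genes within 1000000 bases of the cluster, of which 10 passed the filter. In Tfam+/- against WT 0 of the 10 were called by limma (3 at an unadjusted p under 0.05), with a median of 0.31. In Tfam+/-Zbp1-/- against Tfam+/-, Slamf9, a SLAM family receptor, fell by 1.84 ± 0.25 (adjusted p = 0.0094), and Igsf9, an adhesion molecule of the immunoglobulin superfamily, fell by 0.99 ± 0.20 (adjusted p = 0.037), while the median of the 10 was -0.14. None of the 10 was called in Tfam+/-Zbp1-/- against WT (2 at an unadjusted p under 0.05). Cadm3, whose gene overlaps that of Aim2, measured 64.8 and 53.5 in WT, against 75.6 and 58.7 for Tfam+/-, 159 and 182 for Zbp1-/- and 56.1 and 57.2 for Tfam+/-Zbp1-/-. It was highest in Zbp1-/-, where Aim2 was not.

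Levels were compared between genes per kilobase of the longest GENCODE coding transcript. In WT the highest were Ifi211, at 194 normalized counts per kilobase, Ifi204, at 82.5, and Ifi207, at 14.1, and no other PYHIN gene exceeded 8.41. In Tfam+/- Ifi211 (452) and Ifi204 (224) again led, followed by Ifi205 (43.5) and Ifi203 (39.5). In Zbp1-/- Ifi202b ranked first at a mean of 182, at 224 and 140.3 in its libraries, above Ifi204 (103) and Ifi211 (93.8). Ifi204 ran from 90.3 to 115 and Ifi211 from 78.1 to 109, so they overlapped each other and stayed below the lower library of Ifi202b. In Tfam+/-Zbp1-/- the order was Ifi211 (139), Ifi204 (85.9), Ifi203 (11.3) and Ifi207 (11.1). Aim2 stayed between 4.01 and 8.30 in the means of the 4 genotypes.

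**Figure D5:**
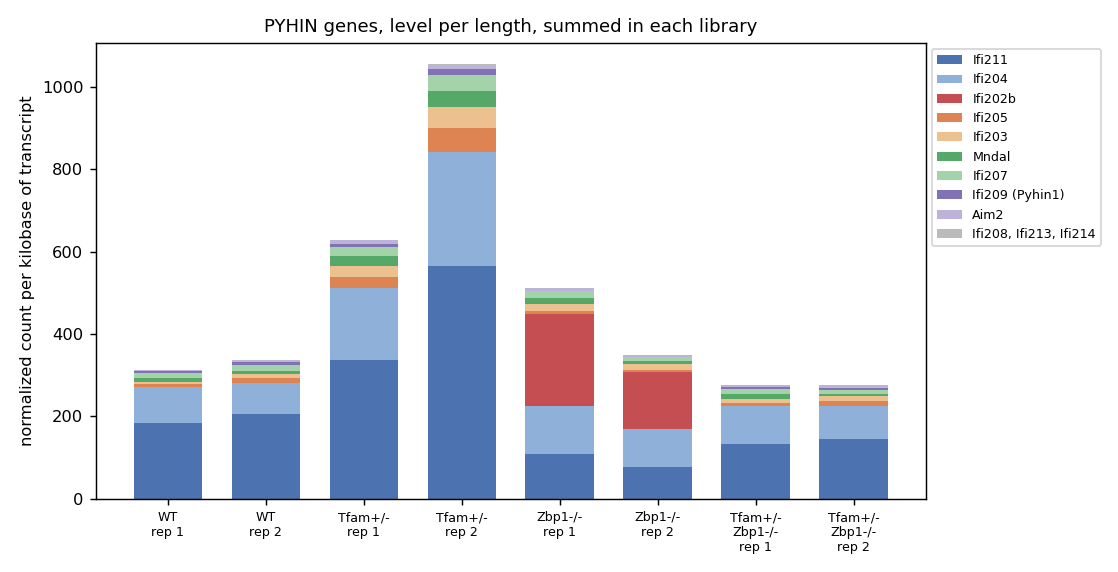
Normalized count per kilobase of transcript (y axis), stacked over the PYHIN genes of each library (x axis). Ifi211 and Ifi204 make up most of each bar outside Zbp1-/-, the bars of Tfam+/- are the tallest, and Ifi202b appears only in the Zbp1-/- bars, where it is the largest segment.

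Summed over the 12 PYHIN genes, the cluster held 647 and 698 normalized counts in WT, against 1323 and 2225 for Tfam+/-, 1022 and 712 for Zbp1-/- and 596 and 589 for Tfam+/-Zbp1-/-. Without Ifi202b, the Zbp1-/- libraries held 642 and 473, at or below WT. Both Zbp1-/- libraries were above both WT libraries in this sum only with Ifi202b counted. Summed over the 6 members other than Ifi202b, both were above WT, at 394 and 299 against 273 and 281. The 12-gene sum also holds Ifi211, which is not a member and measured 327 and 366 in WT and 195 and 139 in Zbp1-/-.

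The pathways around the cluster were described with lists of genes chosen by known function, though with earlier results of these data known. Of 30 interferon-stimulated comparison genes outside the PYHIN family, 24 rose in Tfam+/- against WT (adjusted p under 0.05, limma), 24 fell in Tfam+/-Zbp1-/- against Tfam+/-, and 1 rose in Tfam+/-Zbp1-/- against WT. Their medians were 2.72, -1.87 and 0.79, larger in size than those of the PYHIN members (1.62, -1.52 and 0.10) in each comparison. The difference between the lists was not tested.

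In type I interferon signalling, 12 of 13 genes were tested. Among the genes that rose in Tfam+/- against WT were Stat2 and Irf9, transcription factors that act downstream of the interferon receptor, Irf7, an inducer of interferon genes, and Usp18, a negative regulator of the receptor. Irf7 was at 29.0 and 44.9 in WT and at 475 and 347 in Tfam+/-, a rise of 3.46 ± 0.29 (adjusted p = 0.0051, limma). Usp18 rose by 4.81 ± 0.21 (adjusted p = 0.00080). In Tfam+/-Zbp1-/- against Tfam+/- the same list held 5 genes called lower and 1, the receptor chain Ifnar1, called higher. Against WT, 1 gene was called in Tfam+/-Zbp1-/-, Usp18, which rose by 1.42 ± 0.21 (adjusted p = 0.035). Ifnb1, the gene of interferon beta, was at 0 in all 8 libraries.

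Of the AIM2 inflammasome list, 10 of 11 genes were tested and Il1b was below the filter. None was called in Tfam+/- against WT (1 at an unadjusted p under 0.05, limma). Pycard, which encodes ASC, measured 51.3 and 31.9 in WT, against 52.8 and 51.2 for Tfam+/-, 59.97 and 48.96 for Zbp1-/- and 47.7 and 52.5 for Tfam+/-Zbp1-/-, and its genotypes were not separated. Casp1, the protease that AIM2 activates through ASC, was at 10.2 and 20.4, 17.6 and 27.9, 16.7 and 16.2, and 17.8 and 13.3 in the same order. Nlrp3, which encodes another inflammasome sensor, fell by 1.72 ± 0.35 from Tfam+/- to Tfam+/-Zbp1-/- (adjusted p = 0.038), from 17.0 and 18.7 to 3.75 and 5.84. It was the 1 call of the list in that comparison, and none was called in Tfam+/-Zbp1-/- against WT (2 at an unadjusted p under 0.05).

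The list of cytosolic DNA sensing held 12 genes, among them those of cGAS, STING and the nucleases that remove DNA. All 12 were tested and 0 were called by limma in each of the 3 comparisons, with 1 at an unadjusted p under 0.05 in each. Their medians were 0.27, -0.09 and 0.13, where those over all genes were -0.01, 0.14 and 0.12.

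Across the 8 libraries, the genes outside the list most like each member were ranked by Pearson's r of log2(normalized count + 1), a description over libraries that share 4 genotypes. For Ifi202b these were Dpt (0.989), Serping1 (0.986) and Wdfy1 (0.978), none of which was at 0 in the libraries where Ifi202b was. Since Ifi202b was at 0 in 6 libraries, this ranks genes by being high in the Zbp1-/- libraries, the pattern the choice of genes already used. For Ifi204 they were Zc3hav1 (0.989), Ccl2 (0.984) and Dtx3l (0.967), and for Ifi203 Ccl7 (0.973), Galnt16 (0.961) and Ccl2 (0.959). Ifi205 was nearest to Bcl2a1b (0.957), Tgtp1 (0.955) and Gabre (0.955). Mndal was nearest to Tnfaip1 (0.983), Endod1 (0.973) and Chst11 (0.959). Aim2 was nearest to Tg (0.969), Oasl1 (0.936) and Ifi27l2a (0.934), and Ifi209 to Mdn1 (0.976), Tac1 (0.971) and Anxa1 (0.971).

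Within the family, Ifi204 was nearest to Mndal (0.937) and to its neighbour Ifi207 (0.936), and Ifi205 to Ifi211 (0.939). Ifi209 was also nearest to Ifi211 (0.915). Since Ifi205 shared 54.1% of its 31-base words with Ifi211 and the counting method is not given, the counts of that pair may not be separate.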

How the data were processed

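RNA was sequenced from 8 libraries of primary mouse embryonic fibroblasts. Reads were aligned with STAR 2.6.1a to mm10 with RefSeq genes and processed on BaseSpace, and Salmon is also named, per the submitters' processing notes and the series' design text. Each deposited value is a normalized count made by the authors, treated as a signal since it is at least 0 and need not be whole. The sources used here do not give how reads were counted or scaled, or whether strand was used. Only 22.2% to 34.9% of low values were whole multiples (tolerance 0.01) of what 1 read would be worth, so whole reads were not recovered, no count test was run and the depth in reads is unknown.

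Values were taken as log2(normalized count + 1), which understates the change of low genes. limma 3.58.1 in R 4.3.3 (lmFit, eBayes with trend, 4 residual and 2.77 prior degrees of freedom) fitted the 4 genotypes together over the 13267 genes with a mean of at least 10, two-sided, with Benjamini-Hochberg adjustment over all of them and calls at an adjusted p under 0.05. The script was tested on simulated data. The smallest p of an exact permutation test with 2 libraries per genotype is 0.333. Comparisons with Zbp1-/- and Ifi202b got no test, since the choice of genes used them.

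The members, the gene lists and the rule for named genes were chosen with earlier results of these data known. The rule names the members, Tfam and Zbp1, the 3 genes most like each member by Pearson's r, genes with the presence pattern of Ifi202b or its reverse, and examples from the lists. Coordinates and promoter windows are RefSeq's for GRCm38.p6, 1-based; transcript lengths and 31-base words are from GENCODE. A total of 24407 gene names matched a RefSeq symbol. The alternatives changed the pseudocount (5, 0.1), the filter (none, or a mean of 50) or the scaling (TMM, trimming 30% of ratios and 5% of means), or used a prior without trend, a replicate block, a term shared by 2 libraries, a fit of 6 libraries and leaving out each library. Some genes of the lists are counted but not reported here by name.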

Additional observations from a re-analysis of the deposited data

Results flagged for a closer look

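For 3 members the libraries moved without overlap in opposite directions under the same contrast in different genotypes. The differences were not tested, because the choice of genes used Zbp1-/-. Over all genes, 42.1% were higher without overlap in Zbp1-/- against WT, and 13.5% were lower in Tfam+/-Zbp1-/- against Tfam+/-. For the Tfam contrast, 23.3% were higher with Zbp1 and 23.3% were lower without it. The share of genes with both moves at once was not counted, so nothing is drawn from the number of members. For Ifi203 the effect of Tfam+/- was upward with Zbp1 and downward without it, and the effect of Zbp1-/- was upward with 2 Tfam alleles and downward with 1; the difference of the effects was -2.72 on the log2 scale. For Ifi204 the effect of Zbp1-/- was upward with 2 Tfam alleles and downward with 1, a difference of -1.65. For Aim2 the same contrast gave a difference of -1.07, with Zbp1-/- (15.7 and 15.2) just above the higher WT value (14.6).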

How the results depend on the processing

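The count of calls over all genes changed by more than 1.5 times under several settings. In Tfam+/- against WT it was 97, in Tfam+/-Zbp1-/- against Tfam+/- 748 and in Tfam+/-Zbp1-/- against WT 183. With the replicate block these became 28, 351 and 8, and the members called in the second went from 2 to 0 (Ifi203 adjusted p = 0.068, Ifi204 adjusted p = 0.074). The replicate numbers do not pair the libraries: deviations of same-numbered libraries had r from -0.70 to 0.06, and -0.37 between WT and Tfam+/-Zbp1-/-, where a crossed block, chosen after seeing the data, also gave 8 calls. With a term shared by Tfam+/- replicate 1 and Zbp1-/- replicate 2 there were 2069, 6049 and 5634 calls, and without both libraries 2049, 5779 and 5946; members called were then 5 in each of the first and second comparisons and 0 in the third. This pair of libraries was known from earlier results of these data. Without the filter on low values the third comparison gave 117 calls, and the second 1 called member (Ifi203 adjusted p = 0.053).

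Leaving out 1 library at a time gave 12 to 98, 12 to 874 and 0 to 256 calls in the same order; the count of 0 came without either WT or either Tfam+/-Zbp1-/- library, with limma and 855 to 874 genes at an unadjusted p under 0.05. A lone library of a genotype is then assumed to vary like the others. Members called ran from 0 to 2 in the first and second comparisons, and were 0 in the third throughout. TMM scaling moved the median of all genes from 0.14 to 0.02 in the second and from 0.12 to 0.00 in the third, and the share of calls that were higher from 58.8% to 42.2% and from 65.0% to 47.9%. It turned Ifi209 to -0.066, Ifi204 to -0.060, Mndal to -0.0090 and Ifi205 to -0.014 in the third comparison. Leaving out libraries gave there -0.33 to 0.42 for Ifi209, -0.34 to 0.53 for Ifi205, -0.045 to 0.16 for Ifi204 and -0.40 to 0.60 for Mndal. Of 404 alternative values of the 8 tested PYHIN genes, 346 kept their direction and side of the threshold, 30 passed it newly, 17 lost it and 11 changed sign, all 11 in Tfam+/-Zbp1-/- against WT. The cause of these changes was not tested.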
